A study of Mus musculus with 6 samples.

Results

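The nuclear genes for respiratory complexes II to V were followed in activated lung group 2 innate lymphoid cells (aILC2s) cultured for 24 h either in 250 µM melatonin or in DMSO, the vehicle. The members are the nuclear protein-coding genes whose symbol begins with Uqcr, Atp5 or Cox and a digit, with *Cyc1*, *Cycs* and *Sdha* to *Sdhd*. In release M39 of the GENCODE annotation 61 genes met this rule, of which 56 of the 16381 genes in the table were listed, and all 56 passed the filter on low values. They comprised 45 subunits of complexes II to V, *Cycs*, 9 factors that assemble complex IV (*Cox10*, *Cox11* and *Cox14* to *Cox20*) and *Atp5if1*, the inhibitor of ATP synthase; *Cycs* is counted with the subunits, which makes 46. The tissue isoforms *Cox4i2*, *Cox7b2*, *Cox8b* and *Cox8c* were not listed, and a second gene model of *Atp5po* with an identifier beyond the last one in the table was not analysed here.

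By the study's methods the cells came from wild-type female BALB/cJ mice of 6 to 8 weeks, although 4 of the 6 libraries held Y-linked transcripts (values below), and the mice had received IL-33 intranasally at 0.5 µg per day for 3 days, before a sort of lineage-negative ST2+ CD127+ cells at a purity above 95%. By the labels and methods all 6 samples shared strain, IL-33 challenge, sort and culture, with 3 samples in melatonin and 3 in vehicle. The labels do not say that samples came from separate mice, so the p-values measure the spread between these samples. In bulk RNA, fewer cells with a transcript and less of it per cell cannot be told apart.

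Complex II (succinate dehydrogenase) passes electrons from succinate to ubiquinone, forming ubiquinol, and complex III passes them from ubiquinol to cytochrome c. Complex IV (cytochrome c oxidase) hands them to oxygen, and complex V (ATP synthase) uses the proton gradient built up on the way to make ATP. Complex II is made from nuclear genes alone, whereas complexes III, IV and V also hold subunits made from mitochondrial DNA. Complex IV further needs dedicated factors that insert heme a and copper, several of which carry a Cox symbol although they are no part of the finished enzyme.

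Letters of the motifs of transcription factors known for these genes were sought in RefSeq promoter sequences (build GRCm38.p6, 250 bases before to 50 after the start, both strands), which were held for 41 of the 56 members. The NRF1 letters GCGCANGCG occurred for 13 of 34 subunits (38.2%), for no assembly factor among the 7 with an entry, and for 9.63% of 17492 protein-coding genes. The GABP or ETS letters CCGGAAG occurred for 12 of 34 subunits (35.3%), 5 of 7 assembly factors and 12.9% of genes. The YY1 letters AAGATGGC, which can overlap the end of the ETS letters, occurred for 3 subunits (8.82%), 2 assembly factors and 3.57% of genes, and the SP1 letters GGGCGG for 13 subunits (38.2%), 5 assembly factors and 49.2% of genes. Stretches upstream of the start are given because genes that fell and genes that were not called carry the same letters, given in capitals as NRF1 in the first 4 lines and ETS in the others.
Sdhd: tcgctggggtGCGCACGCGcggtggcagc
Atp5mc2: ggctccggccGCGCATGCGcagagccttc
Sdha: ggggcgtgttGCGCAGGCGcagaatcttc
Cycs: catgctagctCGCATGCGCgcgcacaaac
Uqcr11: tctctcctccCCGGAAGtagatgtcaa
Atp5f1e: acggccacagCTTCCGGtagccgctcg
Cox10: gcgctgggagCCGGAAGtgacaagagg
Cox20: ccagggcgggCTTCCGGacagccccag
In GRCm38.p6 these lie at chr9:50603910-50603938, chr15:102671071-102671099, chr13:74350277-74350305, chr6:50566612-50566640, chr10:80406871-80406897, chr2:174464187-174464213, chr11:64079483-64079509 and chr1:178319040-178319066, all on the minus strand except that of *Cox20*. As tested below, *Sdhd*, *Atp5mc2*, *Uqcr11* and *Atp5f1e* fell with melatonin, and *Sdha*, *Cycs*, *Cox10* and *Cox20* were not called. Of the 27 subunits with an entry that fell, 10 had the NRF1 letters and 11 the ETS letters, against 3 and 1 of the other 7. A match in this window is a description and not a binding site.

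The estimated counts of the 6 libraries ranged from 17056266 to 20511708. ILC2 markers summed to between 206005 and 220699 normalised counts in vehicle samples and between 140969 and 162141 with melatonin, and all 14 were listed. *Il5* and *Il2ra* made up the largest part of this sum, and members went both ways: 8 were called lower, *Il1rl1* (0.63) and *Rora* (0.64, log2 fold changes) were called higher, and *Gata3*, *Icos*, *Ptprc* and *Il17rb* were not called. Myeloid markers (7 of 8 listed) summed to 1348 to 1588 in vehicle and 362 to 801 in melatonin samples, T cell markers (4 of 6 listed, *Cd4* and *Cd8a* not among them) to 1210 to 1349 and 458 to 870, and the 3 B cell markers listed, *Ms4a1* not among them, to 392 to 566 and 145 to 241. Epithelial markers (8 of 10 listed) summed to 964 to 2412 and 1061 to 1261, and here too members went opposite ways. *Epcam*, nearly all of the melatonin sum, rose from between 623 and 745 to between 1016 and 1230, whereas *Scgb1a1* (21.5 to 1045 in vehicle and 0 to 1.01 in melatonin samples), *Sftpc*, *Sftpa1*, *Krt8* and *Krt18* were called lower. Of 5 endothelial and fibroblast markers only *Pecam1* was listed, at 1001 to 1066 in vehicle and 310 to 416 in melatonin samples. Y-linked *Ddx3y*, *Eif2s3y*, *Kdm5d* and *Uty* were at 0 in melatonin replicates 2 and 3, where *Xist* was at 579 and 1091, while the other 4 libraries held Y-linked transcripts although the methods give female mice. Below the lowest vehicle sample were 43 of 46 subunits in melatonin replicate 1, 42 in replicate 2 and 39 in replicate 3. The part of the marker and Y-linked differences in the results below was not tested, and among melatonin samples replicate 1 alone held Y-linked transcripts. Library names run in separate ranges for melatonin and vehicle, so a library batch and treatment cannot be told apart.

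Most nuclear subunit transcripts of complexes III, IV and V and 2 of 4 of complex II were lower in melatonin-treated aILC2s, and fewer were called with correction for transcript length, with 8 of the 16 losses in complex IV. In limma's moderated test with Benjamini-Hochberg adjustment over 14419 genes, 36 of the 46 subunits fell (78.3%), *Cox7a2l* alone rose and 9 were not called, where 24.7% of all genes tested were called lower and 24.5% higher. All 3 melatonin samples lay below all 3 vehicle samples for 38 subunits and above them for 1, against 30.3% and 30.0% of all genes tested. The median log2 fold change of the subunits, melatonin over vehicle, was −0.46, a change of −27.4%, and that of all genes tested was −0.005. Relative to the vehicle mean, the median subunit stood at 0.060, −0.006 and −0.055 in vehicle replicates 1, 2 and 3 and at −0.60, −0.48 and −0.35 in melatonin replicates 1, 2 and 3 on the log2 scale. With each sample left out in turn, between 28 and 39 subunits were called lower: 37 without melatonin replicate 1, 30 without replicate 2 and 39 without replicate 3. Of the 43 members called in either direction, assembly factors and *Atp5if1* included, 29 were called whichever sample was left out, and *Sdhd*, *Uqcr10*, *Uqcr11*, *Uqcrh*, *Cox6a1*, *Cox7a2l*, *Cox7c*, *Atp5mc2*, *Atp5me*, *Atp5pf*, *Cox14*, *Cox17*, *Cox18* and *Cox19* lost the call in at least 1 of the 6 fits, with a highest limma adjusted p of 0.126. After correction of each sample for transcript length, 21 subunits were called lower (45.7%, against 24.3% of all genes tested in that fit) and the median was −0.25. Of the 36 called before, 20 kept the call, and *Sdha* gained one.

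**Figure D1:**
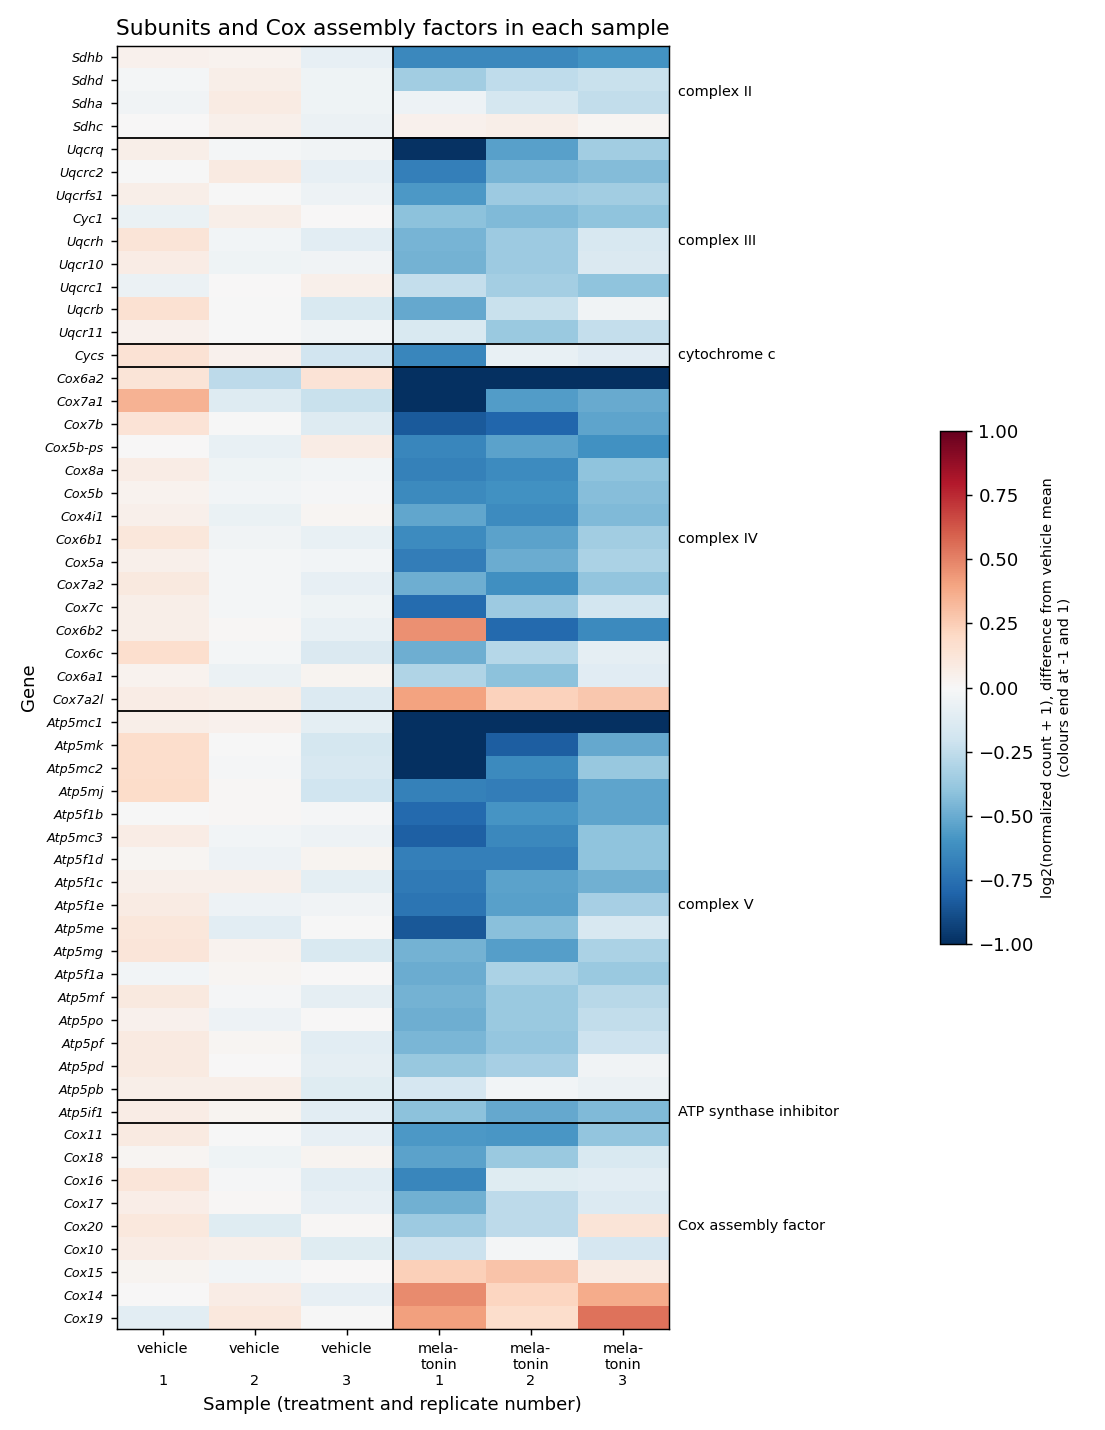
Values of the 56 members (rows, grouped by complex and ordered by fold change) in the 6 samples (columns) as differences in log2(normalised count + 1) from the vehicle mean, blue lower and red higher, with colours ending at -1 and 1. Blue fills the melatonin columns for most subunits, 36 of 46 of which were called lower, whereas *Cox7a2l*, *Cox14*, *Cox15* and *Cox19* are red in all 3 melatonin columns.

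In complex II, 2 of 4 members fell, with a median log2 fold change of −0.22, and partners in the enzyme differed. *Sdhb* encodes the iron-sulfur subunit (chr4:140688502-140709380, GRCm39) and was at 9765, 9742 and 8968 normalised counts in vehicle replicates 1, 2 and 3 and at 6073, 6068 and 6275 with melatonin, with the 3 melatonin samples close together and well below the vehicle range. It fell by 0.63 ± 0.07 on the log2 scale (SE, limma adjusted p = 0.00026). *Sdhc*, which encodes a membrane anchor, was at 2973, 3068 and 2848 in vehicle and 3052, 3091 and 2994 in melatonin samples, and the groups overlapped (log2 fold change 0.04 ± 0.07, limma adjusted p = 0.659). The second anchor gene *Sdhd* was at 6484, 6837 and 6364 against 5149.9, 5502 and 5618 and fell by 0.28 ± 0.07 on the log2 scale (SE, limma adjusted p = 0.0135), a call that was lost with correction for transcript length (−0.097, adjusted p = 0.262 in limma). *Sdha*, which encodes the flavoprotein that oxidises succinate, was at 8684, 9450.2 and 8629.6 against 8585, 7872 and 7526, with replicate 1 just below the lowest vehicle sample and the other two further down (log2 fold change −0.16 ± 0.08, limma adjusted p = 0.131). The ratio of *Sdhb* to *Sdhc* counts was 3.28, 3.18 and 3.15 in vehicle samples and 1.99, 1.96 and 2.10 with melatonin, with no overlap.

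In complex III, which moves electrons from ubiquinol to cytochrome c, 8 of 9 nuclear subunits fell, with a median log2 fold change of −0.33. The catalytic pair fell alike: *Cyc1* (cytochrome c1) was at 5607, 6121 and 5898 in vehicle and 4429.9, 4322 and 4443 in melatonin samples and fell by 0.42 ± 0.07 on the log2 scale (SE, limma adjusted p = 0.00159). *Uqcrfs1*, the Rieske iron-sulfur protein, was at 4288, 4124 and 3974 against 2772, 3202 and 3242 and fell by 0.43 ± 0.08 on the log2 scale (SE, limma adjusted p = 0.00338). Of the core genes, *Uqcrc2* was at 3585, 3816 and 3384 against 2239, 2606 and 2665 and fell by 0.52 ± 0.09 on the log2 scale (SE, limma adjusted p = 0.00184), and *Uqcrc1* fell by 0.32 ± 0.08 on the log2 scale (SE, limma adjusted p = 0.00771). In none of these 4 genes did the groups overlap. Of the 5 small supernumerary subunits, *Uqcrq* changed most, at 5206, 4916 and 4858 against 2518, 3419.7 and 3925, where melatonin replicate 1 was far below the other two. It fell by 0.63 ± 0.14 on the log2 scale (SE, limma adjusted p = 0.00705). With correction for transcript length 6 of the 9 were called lower, and *Uqcr10* (0.15) and *Uqcrh* (−0.19) were not. *Uqcr11* was at 2988, 2898 and 2831 against 2612, 2239.7 and 2466 and fell by 0.25 ± 0.08 on the log2 scale (SE, limma adjusted p = 0.0288). *Uqcrb* was at 2710.1, 2424 and 2194 against 1703, 2084 and 2374, with melatonin replicate 3 above vehicle replicate 3, and was not called (log2 fold change −0.26 ± 0.13, limma adjusted p = 0.128). *Cycs*, the soluble carrier between complexes III and IV, was at 7201, 6715 and 5704 in vehicle and 4144, 6199.7 and 6029 in melatonin samples; replicate 1 was low and the others lay within the vehicle range (log2 fold change −0.28 ± 0.16, limma adjusted p = 0.17).

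In complex IV, 11 of 15 listed nuclear genes fell, 1 rose and 3 were not called, with a median log2 fold change of −0.51. Among the 10 ubiquitous subunits 9 fell (median −0.50), the exception being *Cox6c*, at 4925, 4323 and 3968 against 3127, 3601 and 4117 (log2 fold change −0.29 ± 0.12, limma adjusted p = 0.0699), which was called lower in 3 alternatives. With correction for transcript length only *Cox5b* and *Cox7b* of the 9 kept the call, at −0.28 and −0.47, and the median of the 10 was −0.15. *Cox4i1*, *Cox5a*, *Cox6a1*, *Cox6b1*, *Cox7a2*, *Cox7c* and *Cox8a* lost it, at log2 fold changes from −0.21 for *Cox4i1* to 0.14 for *Cox6a1*. Complex IV as listed then had 3 of 15 genes called lower (20.0%), near the 24.3% of all genes. *Cox7b*, the single member on the X chromosome (chrX:105055638-105066240), changed most among them, at 5289.6, 4805 and 4416 against 2698, 2790.3 and 3356, and fell by 0.72 ± 0.11 on the log2 scale (SE, limma adjusted p = 0.00081). All 3 melatonin samples were below the vehicle range. Melatonin replicates 2 and 3 differed from the vehicle samples in *Xist* and Y-linked transcripts, and the part of this difference in the fall of *Cox7b* was not tested. *Cox4i1*, the regulatory subunit that binds nucleotides, was at 10848, 9950.5 and 10564 against 7280.0, 6772 and 7688 and fell by 0.53 ± 0.08 on the log2 scale (SE, limma adjusted p = 0.00085). *Cox6a1* had the smallest fall called among them, being at 9074, 8472 and 9003 against 7167, 6663 and 8159, and fell by 0.28 ± 0.09 on the log2 scale (SE, limma adjusted p = 0.0309). *Cox5a*, *Cox5b*, *Cox6b1*, *Cox7a2*, *Cox7c* and *Cox8a* fell by between 0.44 and 0.57 on the same scale. *Cox5b-ps*, a retrocopy of *Cox5b* that the annotation gives as protein-coding, fell by 0.60 ± 0.11 on the log2 scale (SE, limma adjusted p = 0.00216), lost the call with correction for transcript length (−0.15), and reads of the 2 genes may have been split between them.

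*Cox7a2l* was the only subunit called higher. It encodes a relative of Cox7a2 described as a factor for supercomplexes of complexes III and IV and lies at chr17:83765970-83824759. The allele carried by these mice, and whether its product does so here, was not examined. Counts of *Cox7a2l* were 1416, 1404 and 1227 in vehicle and 1779, 1582 and 1624 in melatonin samples, with every melatonin sample above the vehicle range. It rose by 0.30 ± 0.09 on the log2 scale (SE, limma adjusted p = 0.0231). With correction for transcript length it was at 0.48 and kept the call. *Cox7a2* itself was at 5011, 4600.4 and 4419 in vehicle and 3328, 3058 and 3561 in melatonin samples and fell by 0.50 ± 0.09 on the log2 scale (SE, limma adjusted p = 0.0018), with −0.19 and no call after correction for transcript length. The ratio of *Cox7a2* to *Cox7a2l* counts was 3.54, 3.28 and 3.60 in vehicle samples and 1.87, 1.93 and 2.19 with melatonin. The rise of *Cox7a2l* was not called when vehicle replicate 2 or 3 was left out or without the mean-variance trend, with a highest adjusted p of 0.0881 in limma.

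The tissue isoforms of complex IV were at the low end of the members. *Cox6a2*, the heart and muscle form of Cox6a, was at 26.1, 19.7 and 26.2 normalised counts in vehicle and 0.934, 1.09 and 1.01 in melatonin samples, the latter being 1 estimated read in each library. Over the groups this was 74 reads against 3, a ratio of 23.8 with an exact 95% interval of 7.83 to 118 that covers counting error only (limma adjusted p = 0.0004). Reads of *Cox6a1* per kilobase of transcript were at 15498 in vehicle samples, where *Cox6a2* was at 35.3. *Cox7a1*, the muscle counterpart of *Cox7a2*, was at 31.7, 22.5 and 21.0 against 9.34, 16.4 and 17.1, below the vehicle range in every melatonin sample but not called (log2 fold change −0.79 ± 0.37, limma adjusted p = 0.101). *Cox6b2*, the testis form of *Cox6b1*, was at 49.5, 47.8 and 45.1 against 65.4, 27.3 and 30.2, with melatonin replicate 1 the highest of all 6 and the other two the lowest (log2 fold change −0.32 ± 0.34, limma adjusted p = 0.46). *Cox6b1* was at 6631, 5956 and 5801 against 3957, 4212 and 4811 and *Cox8a* at 6503, 6000.2 and 6077 against 3879, 3999.8 and 4691, both with no overlap. Expression of the unlisted partners *Cox4i2*, *Cox8b* and *Cox8c* was not analysed here.

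**Figure D2:**
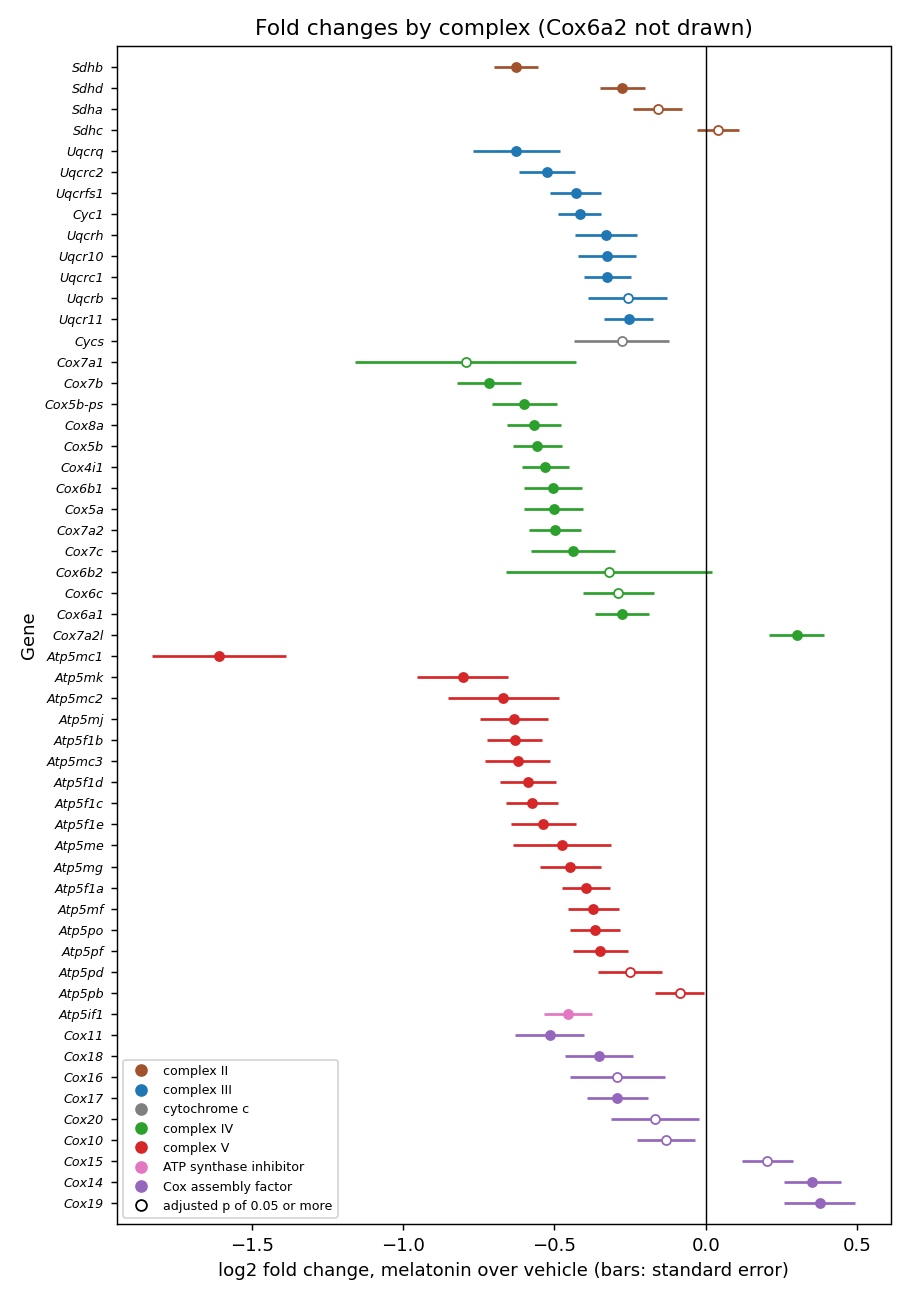
Log2 fold changes, melatonin over vehicle, of 55 members (*Cox6a2* is not drawn), with bars for the standard error and open points for genes that were not called; colours mark the complexes. *Cox7a2l* at 0.30 is the only filled subunit point to the right of 0, and *Atp5mc1* at −1.61 lies furthest to the left.

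In complex V, 15 of 17 nuclear subunits fell, with a median log2 fold change of −0.54. With correction for transcript length 10 of the 17 were called lower. In the F1 part, which makes ATP, both head genes and all 3 of the central stalk fell, with medians of −0.51 and −0.57. The stalk gene *Atp5f1e* lost the call with the length correction, at −0.045 (adjusted p = 0.631 in limma), and the other 4 kept it. *Atp5f1b*, the catalytic beta subunit, was at 49989.8, 50466 and 49767 in vehicle and 29196, 33252 and 34787 in melatonin samples and fell by 0.63 ± 0.09 on the log2 scale (SE, limma adjusted p = 0.00073). It was also the most abundant member per kilobase of transcript, at 25999 normalised counts in vehicle and 16828 in melatonin samples. *Atp5mc1*, *Atp5mc2* and *Atp5mc3* encode the same mature c subunit of the rotor ring with different import sequences, and all 3 fell. *Atp5mc1* (chr11:95959678-95966757) was at 349, 345 and 313 in vehicle and 75.8, 121 and 142 in melatonin samples and fell by 1.61 ± 0.22 on the log2 scale (SE, limma adjusted p = 0.00057). *Atp5mc2* was at 279.6, 245 and 222 against 124, 159 and 190.5 and fell by 0.67 ± 0.18 on the log2 scale (SE, limma adjusted p = 0.0152), and with the length correction it was at −0.32 and not called. *Atp5mc3*, the most abundant of the 3 per kilobase, was at 9904, 9227 and 9096 against 5349, 6003 and 7112 and fell by 0.62 ± 0.11 on the log2 scale (SE, limma adjusted p = 0.00171). With the length correction *Atp5mc3* was at −0.37 and kept the call. The ratio of *Atp5mc3* to *Atp5mc1* counts was 28.4, 26.8 and 29.0 in vehicle and 70.5, 49.6 and 50.1 in melatonin samples.

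The remaining membrane part of complex V (*Atp5me*, *Atp5mf*, *Atp5mg*, *Atp5mj* and *Atp5mk*) fell in 5 of 5 genes with a median of −0.48. With correction for transcript length *Atp5mj* and *Atp5mk* kept the call and the other three lost it, *Atp5me* at 0.057, *Atp5mf* at −0.15 and *Atp5mg* at −0.021, and the median was −0.15. *Atp5mk*, which encodes a small subunit that holds ATP synthase in pairs, was at 1207, 1061 and 945 against 507, 602 and 746 and fell by 0.80 ± 0.15 on the log2 scale (SE, limma adjusted p = 0.00266). Of its annotated exon bases, 39.1% overlap *Taf5* on the opposite strand. The peripheral stalk, which keeps the head from turning with the rotor, had a median of −0.30, with 2 of 4 genes called lower. After the same correction its median was −0.28 and both kept the call. *Atp5pb*, its membrane-anchored b subunit, was at 8664, 8693 and 7678 in vehicle and 7421, 8155 and 7988 in melatonin samples, with overlapping groups (log2 fold change −0.09 ± 0.08, limma adjusted p = 0.405). *Atp5pd* was at 2587, 2443 and 2281 against 1866, 1930.0 and 2378, where replicate 3 lay within the vehicle range (log2 fold change −0.25 ± 0.11, limma adjusted p = 0.0782). *Atp5po* and *Atp5pf* fell by 0.37 and 0.35 on the log2 scale, and *Atp5pf* shares 23.8% of its exon bases with *Gabpa* on the opposite strand. *Atp5if1*, which blocks ATP synthase from running in reverse and is no subunit, was at 3522, 3411 and 3102 against 2514, 2347 and 2457 and fell by 0.45 ± 0.08 on the log2 scale (SE, limma adjusted p = 0.00181). With correction for transcript length it was at −0.080 and not called (adjusted p = 0.542 in limma).

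**Figure D3:**
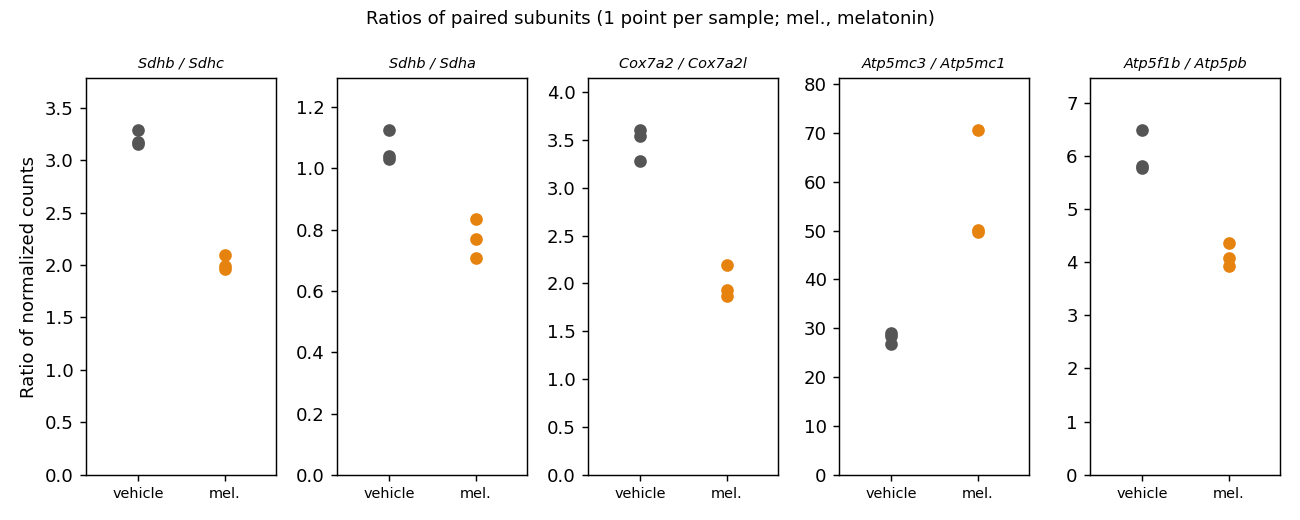
Ratios of normalised counts of 5 pairs of subunits in each sample, with 3 points per group and each axis starting at 0. The pairs were chosen after their values were seen and the ratios are not corrected for transcript length, so only the shift between groups can be read: *Sdhb* to *Sdhc* lies between 3.15 and 3.28 in vehicle samples and between 1.96 and 2.10 with melatonin.

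Of the 9 Cox assembly factors 3 fell (33.3%), 2 rose (22.2%) and 4 were not called. These shares were near the 24.7% and 24.5% of all genes tested, and with correction for transcript length *Cox18* (−0.21) and *Cox19* (0.26) lost the call. The median log2 fold change of the 9 was −0.17, and it was −0.31 without melatonin replicate 3 and −0.09 without melatonin replicate 1. *Cox11*, which carries copper to the Co1 subunit, was at 443, 416 and 394 in vehicle and 279, 279 and 318 in melatonin samples and fell by 0.52 ± 0.11 on the log2 scale (SE, limma adjusted p = 0.00587). *Cox17*, the copper chaperone of the intermembrane space, was at 1873, 1799.9 and 1692 against 1283, 1492 and 1622 and fell by 0.29 ± 0.10 on the log2 scale (SE, limma adjusted p = 0.0391). *Cox18*, which helps Co2 into the membrane, was at 713, 682 and 717 against 487, 544 and 632 and fell by 0.35 ± 0.11 on the log2 scale (SE, limma adjusted p = 0.0298). *Cox16*, needed for Co2 maturation and sharing 19.2% of its exon bases with the same-strand gene *S2bpcox16*, was at 620.4, 564 and 529 against 362, 524 and 530.1 and was not called (log2 fold change −0.29 ± 0.16, limma adjusted p = 0.152). In the other direction, *Cox19*, a partner in copper delivery, was at 574, 667 and 618 against 822, 700.3 and 903 and rose by 0.38 ± 0.12 on the log2 scale (SE, limma adjusted p = 0.0255). *Cox14*, which holds newly made Co1, was at 1220.0, 1282 and 1149.9 against 1687, 1409 and 1575 and rose by 0.35 ± 0.09 on the log2 scale (SE, limma adjusted p = 0.0132).

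The heme a enzymes *Cox10* and *Cox15* were not called, at log2 fold changes of −0.13 and 0.20, and all 3 melatonin samples lay above the vehicle range for *Cox15*. *Cox20* was not called at −0.17, and 71.6% of its exon bases overlap *Hnrnpu* on the opposite strand. Such overlaps of at least 20% with another listed gene on the opposite strand also involved *Cox11*, *Cox15*, *Cox5a*, *Uqcrc2*, *Atp5mk*, *Atp5pf* and *Atp5if1*, 8 of the 56 members tested. The sources used here do not state that counting used strand. Leaving out 1 sample left between 1 and 3 assembly factors called lower (1 without either melatonin replicate 1 or 2 or any one vehicle sample) and between 0 and 2 called higher (0 without vehicle replicate 3, where 2 had an unadjusted p under 0.05 in limma). *Cox11* was called in each of the 20 alternatives.

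Across complexes, the median difference from the vehicle mean in melatonin replicates 1, 2 and 3 was −0.20, −0.22 and −0.23 for complex II, −0.48, −0.37 and −0.35 for complex III, −0.64, −0.56 and −0.40 for complex IV and −0.68, −0.55 and −0.37 for complex V. Complexes IV and V were thus below complex III, and complex III below complex II, in each of the 3 samples, while complexes IV and V changed places between samples. This order was lost with correction for transcript length, where complex IV at −0.15 had the median closest to 0, before complex II at −0.18. These differences between complexes were not tested. For the assembly factors the medians were −0.37, −0.12 and −0.10, and vehicle replicate 3 was at −0.08. The subunit median minus the assembly factor median was −0.008, −0.001 and 0.023 in the vehicle samples and −0.235, −0.361 and −0.244 in the melatonin samples, with no overlap between the groups. As a difference of median fold changes this gap was −0.29, and it was −0.012 with correction for transcript length and −0.15 with quantile normalization. Melatonin replicate 1 was the lowest of its group for 25 of the 35 subunits that fell and had a mean of at least 100 normalised counts (71.4%), and replicate 3 the highest for 31 (88.6%). Over the 2633 genes of that level that fell in the whole table, these shares were 59.1% and 56.1%.

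**Figure D4:**
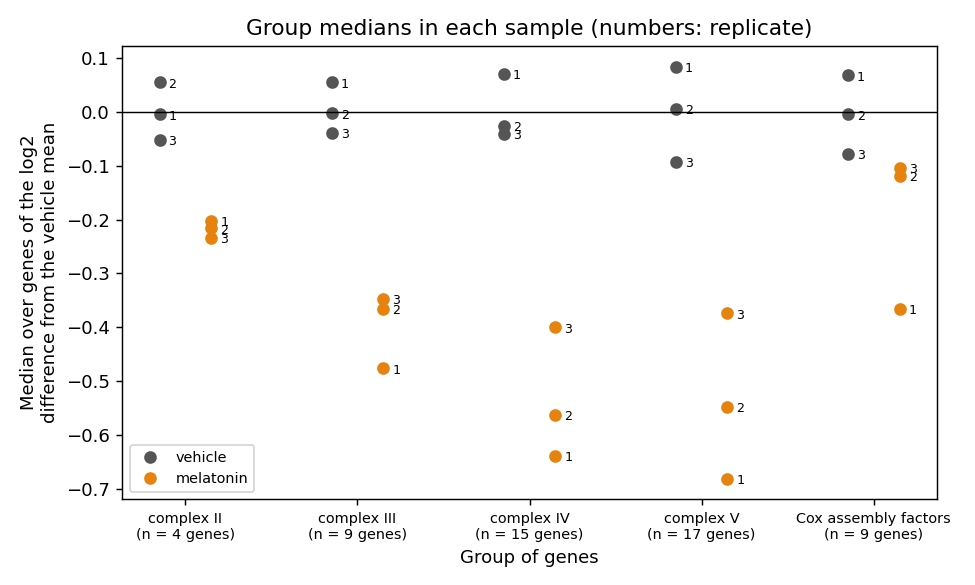
Median over the genes of a group of the log2 difference from the vehicle mean (vertical axis), 1 point per sample numbered by replicate, for complexes II to V and the Cox assembly factors. In each complex the 3 melatonin points lie below the 3 vehicle points, and for the assembly factors melatonin replicates 2 and 3 at −0.12 and −0.10 lie next to vehicle replicate 3 at −0.08.

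Transcript length moved with these results. The subunits are short, with a median annotated transcript length of 1140 bases against 2977 for all genes tested and 3250 for the assembly factors, and abundant, 38 of 46 having a mean above 1000 normalised counts. Among all genes above that level, those under 800 bases were called lower in 64.4% of 219 cases with a median log2 fold change of −0.50, and the 11 subunits in that class, 9 of which fell, had a median of −0.45. From 800 to 1500 bases 48.6% of genes fell (median −0.23), and 7 of 9 subunits did (median −0.37). From 1500 to 3000 bases 32.1% of genes fell (median −0.017), and 12 of 13 subunits did (median −0.43). Above 3000 bases 22.5% of genes fell (median 0.10), and 2 of 5 subunits did (median −0.28). The subunits under 800 bases thus had a median close to that of all abundant genes of that length, whereas those of 1500 to 3000 bases were below theirs in each melatonin sample, at −0.57, −0.44 and −0.40 against 0.007, −0.010 and −0.041.

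**Figure D5:**
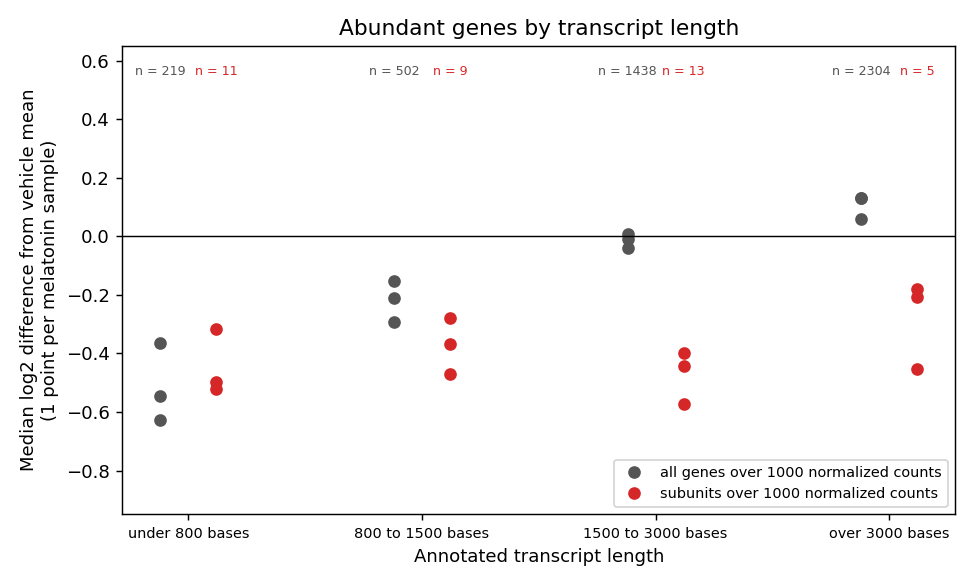
Median log2 difference from the vehicle mean in each of the 3 melatonin samples (points), by annotated transcript length, for all genes with a mean above 1000 normalised counts (grey) and for the subunits among them (red); n is the number of genes. Grey points rise with length from between −0.63 and −0.36 to between 0.06 and 0.13, while the red points stay below 0 in every class.

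With a correction for transcript length, the median log2 fold change was −0.30 in complex III, −0.43 in complex V, −0.25 over all subunits and −0.24 in the assembly factors. *Sdhb*, *Cyc1*, *Uqcrfs1*, *Uqcrc1*, *Uqcrc2*, *Uqcrq*, *Cox5b*, *Cox7b*, *Atp5f1b* and *Atp5mc1* were among the 20 subunits that remained called lower, and *Cox7a2l* remained called higher. The fold changes of several were smaller, that of *Cox5b* being −0.28 in place of −0.56. The 16 subunits that lost the call were 8 of complex IV, 5 of complex V, 2 of complex III and *Sdhd*. Annotated lengths follow 1 canonical transcript per gene, which for *Sdhb*, *Atp5mj*, *Atp5mk* and *Cox17* is a long form. Lengths were also 2746 bases for *Uqcr11*, 2623 for *Atp5po* and 3619 for *Atp5pf*, which kept the call under the correction. The length classes above and the correction rest on these annotated lengths, and which transcript forms these cells hold was not examined.

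Other genes of the same machinery were taken from lists of known members. Of 6 mitochondrially encoded subunits of complexes III to V, 4 fell (66.7%, against 24.7% of all genes tested), with a median log2 fold change of −0.67. *mt-Co3* was at 22688, 15805 and 16029.7 in vehicle and 7036, 5769.5 and 9647 in melatonin samples and fell by 1.29 ± 0.20 on the log2 scale (SE, limma adjusted p = 0.00093). *mt-Co1*, the catalytic subunit of complex IV, was at 17424, 17821 and 11453 against 16779, 9724 and 15279, with overlapping groups (log2 fold change −0.17 ± 0.22, limma adjusted p = 0.552). Of 36 nuclear complex I subunits 20 fell (55.6%) and 16 were not called (median −0.29). After the length correction 12 of the 36 were called lower and 6 higher. More were thus lower than higher, whereas the shares of all genes tested in that fit were nearly even (24.3% and 23.6%). Of the 6 carriers that supply complex V with ADP and phosphate and the outer membrane channels, 4 fell (66.7%, median −0.49): *Vdac2* was at 5587, 5653 and 5328 against 2485, 2757 and 2789.6 and fell by 1.05 ± 0.08 on the log2 scale (SE, limma adjusted p = 3.9e-05), and *Slc25a3*, the phosphate carrier, fell by 0.79 ± 0.07 on the log2 scale (SE, limma adjusted p = 0.0001). In both lists of 6 genes 3 were called lower after the length correction.

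Among assembly factors without a Cox symbol, 3 of 4 for complex II rose (*Sdhaf1*, *Sdhaf2* and *Sdhaf4*, at log2 fold changes of 0.44, 0.32 and 0.32). *Sdhaf1*, which brings iron-sulfur clusters to Sdhb, was at 352, 344 and 339.9 against 456, 512 and 441, in the direction opposite to *Sdhb*. For complex III, 3 of 9 fell and *Ttc19* rose (median −0.15), for complex IV 3 of 14 fell and 2 rose (median 0.07), and for complex V 1 of 7 fell and 2 rose (median 0.16). The last 2 lists had shares lower (21.4% and 14.3%) and higher (14.3% and 28.6%) that do not set them apart from the 24.7% and 24.5% of all genes tested. With correction for transcript length 4 of 14 for complex IV and 4 of 7 for complex V were called higher. In that fit 23.6% of all genes tested were called higher, so the complex V list stood well above this share. *Sco2*, a copper chaperone of Co2, was at 154, 159 and 146 against 30.8, 57.5 and 90.8 and fell by 1.47 ± 0.34 on the log2 scale (SE, limma adjusted p = 0.00701). Among 12 regulators, 5 fell and 7 were not called (median −0.32). *Yy1* fell by 1.16 ± 0.16 on the log2 scale (SE, limma adjusted p = 0.00064) and *Gabpb2* fell by 0.98 ± 0.14 on the log2 scale (SE, limma adjusted p = 0.00071), whereas *Nrf1* was at 1773, 1825 and 1841 against 2019, 2198 and 1704 and *Gabpa* at 1094, 1219.9 and 1081 against 924, 1167 and 1124, both with overlapping groups and not called (log2 fold changes of 0.11 and −0.08). *Ppargc1a* was not listed.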

How the data were processed

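RNA was sequenced in bulk from 3 melatonin and 3 vehicle samples of aILC2s, grouped by their labels. Within Partek Flow the authors trimmed the reads, mapped them to mm39 (build 39 in the submitters' processing notes) by STAR and assigned them to genes of Gencode M33 by expectation maximisation. Genes under 10 counts in every sample were dropped, and the rest were scaled by the median ratio method. The deposited values were used as a signal and called normalised counts, being estimated counts over 1 scaling factor per sample. Of these, 65.8% were whole multiples of the value of 1 read (tolerance 0.01), so whole reads were not recovered. The methods name a count model for the test. Because the table holds normalised values, limma 3.58.1 in R 4.3.3 (lmFit and eBayes with a mean-variance trend) was run instead on the log2 of the value plus a pseudocount of 1, for genes with at least 10 in at least 1 sample, with Benjamini-Hochberg adjustment over 14419 genes and a threshold of 0.05. Fold changes are on that scale and understate the change of low genes. For 1 gene, the smallest two-sided p of an exact permutation test with 3 samples per group is 0.1.

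Members and gene lists were chosen with earlier results of these data known. Values in every sample are given for complex II, *Cyc1*, *Cycs*, the 3 lowest and 2 highest fold changes of complexes III, IV and V and of the assembly factors, the X-linked member, isoform pairs and *Atp5if1*; other named genes were chosen after their values were seen. Names, GRCm39 positions and transcript lengths came from release M39, which named 16334 of 16381 genes. Promoter entries were matched by symbol or unique synonym. Same-numbered samples did not deviate together, so the main test had no replicate term. The script was tested on simulated data. Alternatives were other pseudocounts, filters, scalings and thresholds, voom, sample weights, no trend, GC and length correction (lowess span 0.3), a replicate block, no sex chromosomes and each sample left out. No sample was a copy of another. Python 3.11.15, pandas 2.3.3, numpy 2.4.6, scipy 1.17.1 and matplotlib 3.10.9 were used.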

Additional observations from a re-analysis of the deposited data

How the results depend on the processing

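The direction of the subunit median and of each complex's median was the same in every alternative run, and the order of the complexes was lost with the length correction. Of the 43 members called, 18 were called in every alternative that tested them, which was 19 for *Cox6a2* and *Cox7b* and 20 for the others. Of the 13 members not called, 8 were called in at least 1 alternative: *Sdha* in 4, *Cox6c*, *Atp5pd* and *Cox15* in 3, *Uqcrb* in 2 and *Cox16*, *Cox6b2* and *Cycs* in 1. With correction for transcript length 21 subunits were called lower, the subunit median was −0.25, that of complex IV −0.15 and the subunit median minus the assembly factor median −0.012, 1 assembly factor was called higher, and 19 members lost their call. The sign turned under it for *Sdhc* (−0.064), *Atp5me* (0.057), *Cox6a1* (0.14), *Cox6b2* (0.084), *Uqcr10* (0.15), *Uqcrb* (0.16) and *Cox6c* (0.16), under upper quartile scaling for *Sdhc* (−0.009) and under quantile normalization for *Atp5pb* (0.046). Quantile normalization gave −0.083 for complex II and −0.15 for the gap between subunits and assembly factors, with 1 assembly factor called higher, upper quartile scaling −0.27 for complex II, and GC correction −0.39 for complex III and −0.21 for the gap. Scaling moved the median of all genes to between −0.05 and 0.04. Scaling to the same total left 1 assembly factor called lower. Without the mean-variance trend 0 subunits were called higher, and 1 assembly factor each lower and higher. At an adjusted p under 0.01 these were 0, 1 and 0. *Cox7a2l* kept an unadjusted p under 0.05 in limma in every refit, and voom called 36 subunits lower and 1 higher.

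With each sample left out in turn, 28 to 39 subunits were called lower and 0 to 1 higher (0 without vehicle replicate 2 or 3), with medians from −0.56 to −0.43. Assembly factors called lower numbered 1 to 3 and higher 0 to 2, with medians from −0.31 to −0.09. The ranges were −0.24 to −0.18 for complex II, −0.42 to −0.32 for complex III, −0.58 to −0.48 for complex IV, −0.63 to −0.44 for complex V and −0.34 to −0.24 for the gap. The replicate block gave 34 subunits lower and 1 higher, and 2 assembly factors lower and 1 higher. Without *Cox5b-ps*, an alternative added after the data were seen, 35 subunits were lower. The cause of these shifts was not tested. Depth limits *Cox6a2*, *Cox6b2* and *Cox7a1*, which had at most 70 estimated reads in any library.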
